A study of Homo sapiens with 9 samples.

Results

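Cadherins and catenins are the adhesion proteins of the adherens junction, and this account follows the mRNA of 10 of them in LAPC4, a human prostate cancer cell line of epithelial type. The 10 are 6 classical cadherins (CDH1, CDH2, CDH3, CDH4, CDH6 and CDH11), the cadherin-related CDHR5 and 3 catenins (CTNNA1, CTNNB1 and CTNND1), taken by gene symbol from the 60325 gene rows of the count files. All 10 symbols had a row. The set was drawn up with earlier results of these counts known. CDH4, CDHR5 and CDH6 were chosen by their measured fold changes, being among the largest rises in an earlier analysis, so their values are given as a description with no p-value. The other 7 were added as relatives, and their adjusted p-values come from the test across all genes.

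RNA was sequenced at day 30 from 9 libraries in 3 groups of 3. Rescue cells were labelled as UGT2B28 rescue and titled KD4OE, with G418 (1 mg/mL) as the selecting drug. Knockdown-labelled cells were labelled as a UGT2B28 knockdown and titled KD4, with puromycin (3 ug/mL) as the selecting drug. Control cells were titled NT, with no drug listed for them. UGT2B28 encodes a UDP-glucuronosyltransferase, an enzyme that inactivates steroids, androgens included, by coupling them to glucuronic acid. The labels do not say whether replicates were separate cultures or whether each line was 1 clone, so a p-value here is read against the spread among the libraries sequenced, part of which may be technical, and a drug's effect cannot be told apart from that of the construct.

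Classical cadherins are single-pass membrane proteins that bind the same cadherin on the neighbouring cell in a calcium-dependent way. Their cytoplasmic tails hold p120-catenin (CTNND1) near the membrane and beta-catenin (CTNNB1) farther along, and beta-catenin binds alpha-catenin (CTNNA1), which ties the complex to actin. Beta-catenin released from the junction can enter the nucleus and act with TCF/LEF factors in Wnt signalling. In prostate epithelium E-cadherin (CDH1) is the main luminal cadherin and P-cadherin (CDH3) a basal one, while N-cadherin (CDH2), OB-cadherin (CDH11) and other mesenchymal cadherins are known from stroma and from carcinoma cells that have lost epithelial traits.

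Gene counts summed to between 8132206 and 14185252 per library. UGT2B28 had 1139, 1062 and 539 counts in rescue libraries 1, 2 and 3, 63, 70 and 28 in knockdown-labelled libraries and 44, 50 and 76 in control libraries. It did not pass as lower in the knockdown-labelled libraries than in control (log2 fold change -0.04, SE 0.349, edgeR adjusted p = 0.957), so directions below are those of the libraries labelled knockdown. Knockdown-labelled library 3 stood apart from libraries 1 and 2 of its group: its counts differed from theirs with a chi-square per degree of freedom of 62.0 and 66.4, beside 3.46 between libraries 1 and 2, and 21.4% of tested genes differed by more than 1 on the log2 scale between library 3 and the mean of the other two. The mitochondrial share of the counts was 5.79% to 7.90% in rescue libraries, 15.1%, 15.8% and 10.2% in knockdown-labelled libraries 1, 2 and 3, and 7.62% to 8.57% in control libraries. Fewer expressing cells and less RNA per cell cannot be told apart in such bulk samples. The summed level of the epithelial markers EPCAM, KRT8 and KRT18 was 2074 to 2444 CPM (read counts scaled to a common library size) in rescue, 1562 to 3132 in knockdown-labelled and 1939 to 2292 in control libraries, so markers of the labelled epithelial type were present in all 9 libraries. Of the leukocyte markers, PTPRC had 0 counts in all 9 libraries, and CD68 averaged 5.27 ± 0.675 CPM in rescue, 7.82 ± 4.23 in knockdown-labelled and 6.57 ± 1.58 in control libraries (SD, n = 3 each).

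Per length of exon, E-cadherin and alpha-catenin were the leading members in every group, and CDH4, CDHR5 and CDH11 lay near the floor. In control libraries the order of the mean level, in CPM per kilobase of exon, was CDH1 at 47.0, CTNNA1 at 42.4, CDH3 at 32.3, CTNNB1 at 20.2, CDH2 at 7.04, CTNND1 at 1.54, CDH6 at 0.490, CDHR5 at 0.362, CDH4 at 0.292 and CDH11 at 0.193. The ranges of CDH1 and CTNNA1 overlapped there, as did those of CDH6 and CDHR5 and those of CDHR5 and CDH4, while the other neighbours in this order did not. The level of CTNND1 may be understated, for a reason given with its counts below, so its place in each group's order is uncertain. In rescue libraries CDH6, at 1.85 CPM per kilobase, stood above CTNND1 at 1.52, with overlapping ranges, and CDH11 was last at 0.0487. In knockdown-labelled libraries CDH4 was last at 0.0444, overlapping CDH11 at 0.106.

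**Figure D1:**
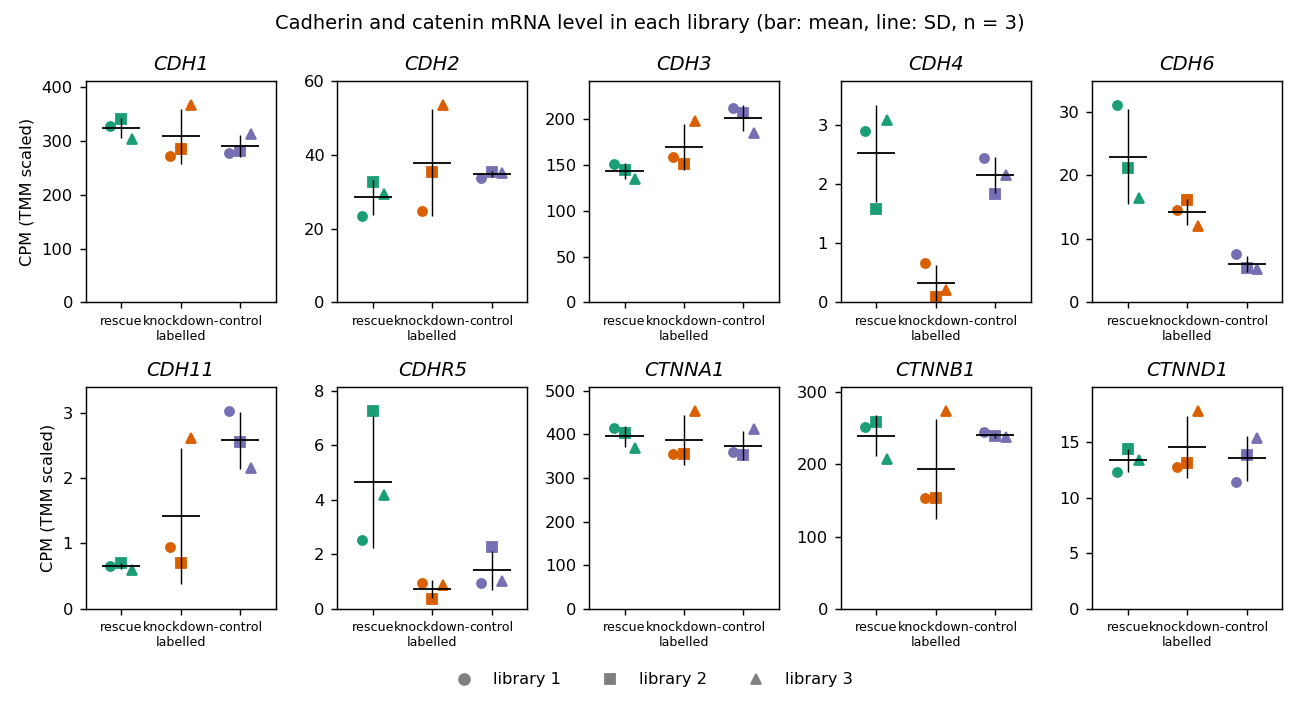
Level of each of the 10 mRNAs (y axis, CPM scaled by TMM, from 0) in the rescue, knockdown-labelled and control libraries (x axis); points are libraries, marked by replicate number, horizontal bars are group means and vertical lines SD (n = 3). CDH6 is lowest in control and highest in rescue, CDH4 is low in the 3 knockdown-labelled libraries alone, and CTNNB1 and CDH11 each have one knockdown-labelled library far from the other two.

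Of the 7 members with a p-value, 0 passed edgeR's quasi-likelihood test at an adjusted p under 0.05 in rescue against knockdown-labelled libraries, where 9.83% of the 16796 tested genes passed. In rescue against control 0 of 7 passed, where 0.149% of all genes did (0.143% as higher), and in knockdown-labelled against control 0 of 7, where 0.00595% did. At an unadjusted p under 0.05 the counts were 0, 2 (CDH3 and CDH11) and 0 of 7 in the same order of comparisons, beside 28.3%, 10.5% and 19.1% of all genes. DESeq2 called 0, 2 (CDH3 and CDH11) and 0 of the 7. It also passed more of all genes than edgeR in each comparison, and those numbers are given with the processing settings below. Over all 10 members, 6 of 10 log2 fold changes were positive in rescue against knockdown-labelled, with a median of 0.05, beside 49.7% positive and a median of -0.0023 for all tested genes. In rescue against control 5 of 10 were positive and the median was 0.04 (all genes 49.0% and -0.0066). In knockdown-labelled against control 5 of 10 were positive and the median was -0.10 (all genes 51.4% and 0.02). All 10 passed the filter on low counts, but CDH4 did so through all 3 rescue and all 3 control libraries and 0 knockdown-labelled libraries. CDHR5 did so through all 3 rescue libraries and 1 control library, and CDH11 through all 3 control libraries and 1 knockdown-labelled library. For CDH4, CDHR5 and CDH11 a difference was therefore partly built into being tested.

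The members whose groups did not overlap in CPM numbered 5 of 10 in rescue against knockdown-labelled libraries, with CDH4, CDH6 and CDHR5 higher and CDH3 and CDH11 lower, beside 28.6% of all tested genes. In rescue against control there were also 5, with CDH6 and CDHR5 higher and CDH2, CDH3 and CDH11 lower, beside 26.4%. In knockdown-labelled against control there were 2, with CDH6 higher and CDH4 lower, beside 21.2%. The choice of members used these contrasts for CDH4, CDH6 and CDHR5, so the counts describe the set and nothing is read from them. The plot of fold changes shows all 10 side by side; the 3 comparisons share groups and are not independent of one another.

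**Figure D2:**
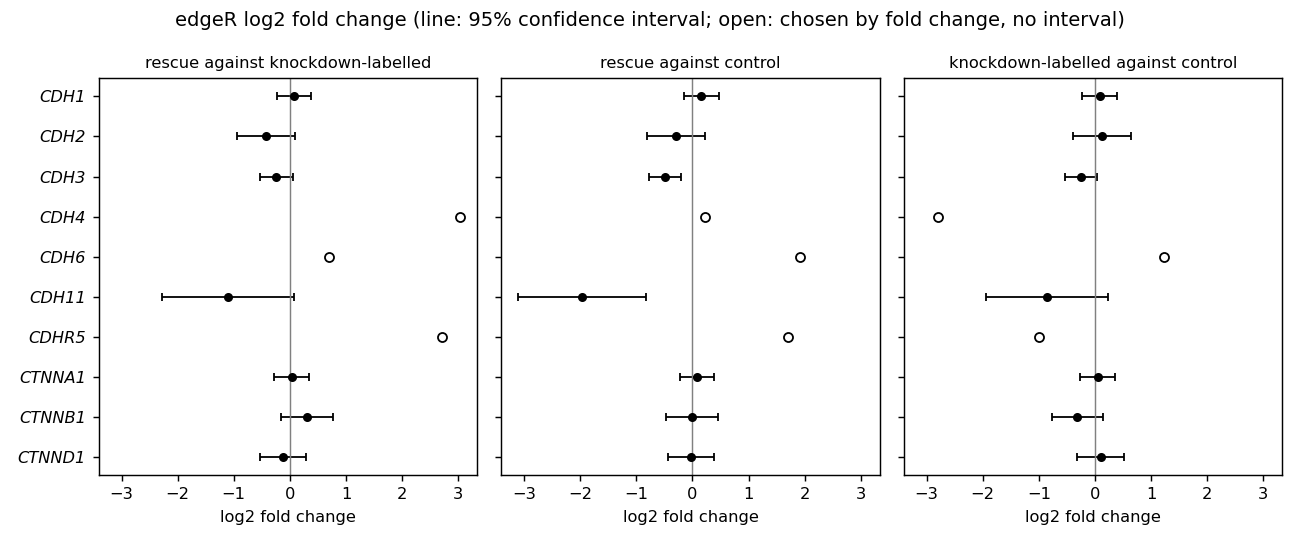
edgeR log2 fold change (x axis) of each gene (y axis) in rescue against knockdown-labelled, rescue against control and knockdown-labelled against control libraries; lines are 95% confidence intervals from the fit of 9 libraries, and open points are CDH4, CDH6 and CDHR5, chosen by fold change and drawn with no interval. CDH4 is at 3.03, 0.23 and -2.80 in these panels, CDH6 at 0.69, 1.93 and 1.23, and the catenins lie close to 0 with intervals that cross it.

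CDH1, the E-cadherin gene, had 4957, 3895 and 3053 counts in rescue libraries 1, 2 and 3, 2018, 3234 and 3371 in knockdown-labelled libraries and 2377, 2757 and 3050 in control libraries. That was 327, 341 and 303 CPM in rescue, 272, 285 and 367 CPM in knockdown-labelled and 277, 281 and 313 CPM in control. The highest library was knockdown-labelled library 3, and the groups overlapped. CDH1 did not pass in any comparison: the log2 fold change was 0.07 for rescue against knockdown-labelled (95% confidence interval -0.24 to 0.38, edgeR adjusted p = 0.783), 0.16 for rescue against control (-0.15 to 0.47, adjusted p = 0.775) and 0.09 for knockdown-labelled against control (-0.22 to 0.39, adjusted p = 0.785). The last became -0.10 with library size alone as scaling, which lowers the median of all genes in that comparison to -0.21.

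CDH3, the P-cadherin gene of basal epithelium, stood at 151, 145 and 135 CPM in rescue, 159, 151 and 198 CPM in knockdown-labelled and 213, 207 and 185 CPM in control libraries. Every rescue library lay below every control library, and knockdown-labelled library 3 lay within the control range. Its log2 fold change for rescue against control was -0.49 (SE 0.132, 95% confidence interval -0.78 to -0.20), which did not pass (edgeR adjusted p = 0.192). It passed in 4 of 17 alternatives, those that dropped the knockdown-labelled libraries (adjusted p = 0.00445), knockdown-labelled library 3 (0.00121) or libraries 1 and 2 of that group (0.00339), and the DESeq2 Wald test (0.0308), while the highest adjusted p among the 17 was 0.640, without control replicate 1. For rescue against knockdown-labelled the change was -0.24 (adjusted p = 0.263), and for knockdown-labelled against control -0.25 (adjusted p = 0.331). The change for knockdown-labelled against control passed without knockdown-labelled replicate 3 (-0.38, edgeR adjusted p = 0.00405). Without that replicate 5691 genes passed in this comparison and 1276 in rescue against control, beside 1 and 25 in the main fit. With libraries 1 and 2 of the knockdown-labelled group left out, rescue against knockdown-labelled gave -0.44.

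CDH2, the N-cadherin gene, had 356, 374 and 295 counts in rescue, 185, 400 and 493 in knockdown-labelled and 291, 347 and 343 in control libraries. In CPM these were 23.5, 32.7 and 29.3 in rescue, 24.9, 35.3 and 53.6 in knockdown-labelled and 33.9, 35.4 and 35.2 in control. The control libraries were tightly grouped, while the knockdown-labelled libraries spread more widely and overlapped both other groups. The log2 fold change was -0.42 for rescue against knockdown-labelled (SE 0.235, edgeR adjusted p = 0.274), -0.29 for rescue against control (adjusted p = 0.743) and 0.13 for knockdown-labelled against control (adjusted p = 0.812). With knockdown-labelled libraries 1 and 2 left out, the first was -0.89 and the last 0.60. Without library 3 they were -0.10 and -0.20, and neither passed.

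Ratios of counts within a library need no scaling factor. The CDH3 count was 46.3%, 42.5% and 44.4% of the CDH1 count in rescue libraries, 58.5%, 53.0% and 54.0% in knockdown-labelled libraries and 76.9%, 73.5% and 59.2% in control libraries. The 3 groups did not overlap, with rescue lowest and control highest. The difference in mean log2 ratio was -0.31 between rescue and knockdown-labelled libraries, -0.65 between rescue and control and -0.33 between knockdown-labelled and control. The two-sided exact permutation p was 0.1 for each, the smallest that 3 libraries against 3 can give, and 0.3 after adjustment over the 15 ratio comparisons made. The CDH2 count was 7.18%, 9.60% and 9.66% of the CDH1 count in rescue, 9.17%, 12.4% and 14.6% in knockdown-labelled and 12.2%, 12.6% and 11.2% in control libraries, so rescue lay below control in every library (mean log2 difference -0.46, exact permutation p = 0.1) and overlapped the knockdown-labelled group (exact permutation p = 0.3).

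Summed per length over the 6 classical cadherins, CDH1 made up 62.8% ± 0.569 of the total in rescue, 58.0% ± 0.494 in knockdown-labelled and 53.8% ± 3.11 in control libraries (SD, n = 3 each). CDH3 made up 27.6% ± 0.954, 31.7% ± 1.65 and 37.0% ± 3.00 in the same groups, and CDH2 6.91% ± 1.15, 8.72% ± 1.95 and 8.06% ± 0.187. CDH6 made up 2.21% ± 0.665 in rescue, 1.38% ± 0.379 in knockdown-labelled and 0.562% ± 0.123 in control libraries. Shares of one total move together, so a larger CDH1 share here stands beside a CDH1 level that did not pass in any comparison.

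**Figure D3:**
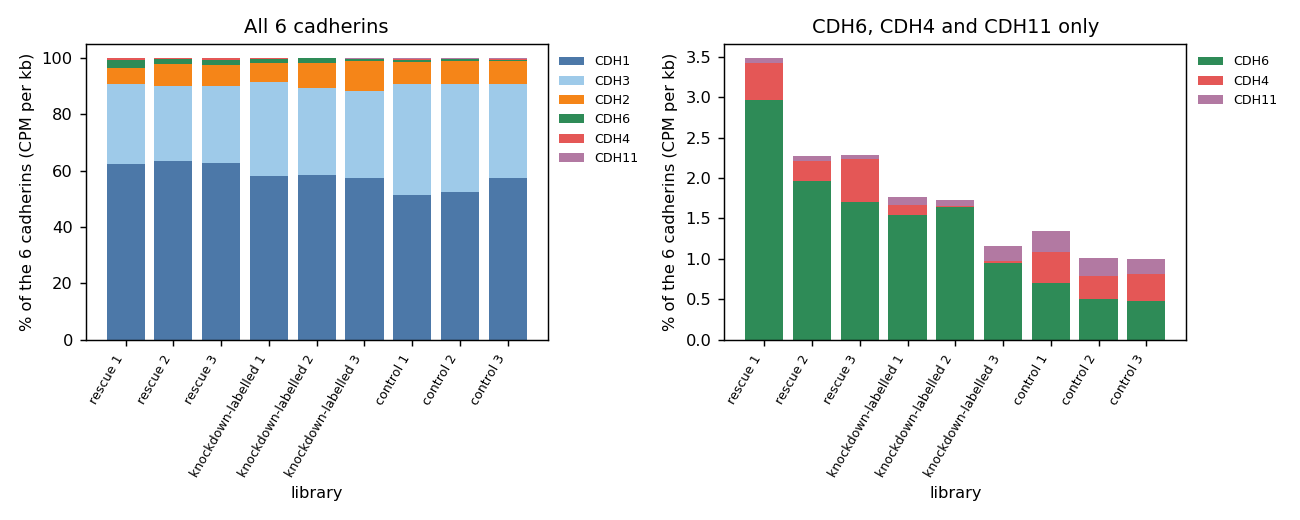
Share of each cadherin in the summed level of CDH1, CDH2, CDH3, CDH4, CDH6 and CDH11 (y axis, percent of CPM per kilobase) in each library (x axis); the right panel shows CDH6, CDH4 and CDH11 alone on a smaller scale. CDH1 takes 62.3% to 63.4% in the rescue libraries and 51.5% to 57.3% in the control libraries, and CDH6 takes the largest share of the last 3 in every library.

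CDH4, which encodes R-cadherin, a classical cadherin best known from retina and nervous system, was a gene of few counts whose low point was the knockdown-labelled group. The gene spans bases 61252426 to 61940617 of chromosome 20 in GRCh38 (GENCODE release 29), plus strand. Its raw counts were 44, 18 and 31 in rescue libraries 1, 2 and 3, 5, 1 and 2 in knockdown-labelled libraries and 21, 18 and 21 in control libraries. In CPM these were 2.90, 1.57 and 3.08 in rescue, 0.673, 0.0883 and 0.218 in knockdown-labelled and 2.45, 1.84 and 2.15 in control. All 3 knockdown-labelled libraries, library 3 included, lay below all 6 others, and rescue and control overlapped. Summed over libraries, 93 counts in rescue against 8 in the knockdown-labelled group gave an 8.86-fold ratio of scaled counts. The ratio of knockdown-labelled to control (8 against 60 counts) was 0.134, and that of rescue to control (93 against 60) was 1.19. No interval is given, because CDH4 was chosen by its fold change. The fitted log2 fold changes were 3.03, -2.80 and 0.23 in that order of comparisons, and leaving out 1 library at a time they ran from 2.52 to 3.99, from -3.76 to -2.29 and from 0.079 to 0.48. The extremes 3.99 and -3.76 came without knockdown-labelled replicate 1, which held 5 of the 8 counts.

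Promoter windows of CDH4 are shown because it is the member with the largest difference in these libraries. The RefSeq table (GRCh38.p14) held promoter windows for 4 of the 10 members, CDH2, CDH4, CTNNA1 and CTNNB1, and not for CDH1, CDH3, CDH6, CDH11, CDHR5 or CTNND1. The 2 windows of CDH4 lie within the span of the gene, downstream of the start that GENCODE gives, so the promoter at that start is not shown. Each sequence below is the 250 bases before an annotated start, 5′ to 3′ on the plus strand, with any CACCTG or CAGGTG in capitals, the E-box letters (each the reverse complement of the other, so both strands are covered) that repressors of the Snail and ZEB families are known to bind in the E-cadherin promoter.
CDH4 window chr20:61499171-61499420: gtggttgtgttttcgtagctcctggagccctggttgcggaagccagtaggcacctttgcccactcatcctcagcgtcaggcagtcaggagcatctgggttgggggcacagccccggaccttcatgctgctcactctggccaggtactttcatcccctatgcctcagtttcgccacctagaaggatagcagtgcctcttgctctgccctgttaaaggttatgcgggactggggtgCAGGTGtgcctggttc
CDH4 window chr20:61599511-61599760: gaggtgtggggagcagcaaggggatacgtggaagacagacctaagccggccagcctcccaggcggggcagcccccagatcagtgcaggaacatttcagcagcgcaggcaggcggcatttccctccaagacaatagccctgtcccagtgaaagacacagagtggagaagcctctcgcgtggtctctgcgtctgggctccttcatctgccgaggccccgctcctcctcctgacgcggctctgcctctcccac
The first window held 1 such E-box, beginning 16 bases before the start, and the second held 0. None of the other 7 windows of members held one, and 17.5% of the 35116 windows of all genes did. The counts do not say which start was used, and any part of the E-box in the CDH4 difference was not tested.

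CDHR5, a cadherin-related protein of the brush border that links the tips of microvilli, was also a gene of few counts. The gene spans bases 616565 to 626078 of chromosome 11 (GRCh38), minus strand. It had 38, 83 and 42 counts in rescue, 7, 4 and 8 in knockdown-labelled and 8, 22 and 10 in control libraries. In CPM these were 2.50, 7.26 and 4.17 in rescue, 0.942, 0.353 and 0.870 in knockdown-labelled and 0.932, 2.25 and 1.03 in control. Each rescue library lay above each library of both other groups, and knockdown-labelled and control libraries overlapped. The summed counts gave a 6.54-fold ratio of rescue to knockdown-labelled (163 against 19 counts) and a 3.13-fold ratio of rescue to control (163 against 40). Fitted log2 fold changes were 2.71 and 1.71, and -1.0 for knockdown-labelled against control. Without rescue replicate 2, which had the highest count, the first 2 were 2.22 and 1.23; without control replicate 2 the last became -0.48. Of the 5 other genes listed for the microvillar tip complex, CDHR2, USH1C and CALML4 had enough counts to be tested and 0 passed in any comparison. CDHR2, the cadherin that pairs with CDHR5, averaged 0.712 ± 0.434 CPM in rescue, 1.15 ± 0.433 in knockdown-labelled and 0.974 ± 0.453 in control libraries (SD, n = 3 each).

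CDH11, the OB-cadherin gene of mesenchyme and bone-forming cells, was the member with the lowest rescue level. It had 10, 8 and 6 counts in rescue, 7, 8 and 24 in knockdown-labelled and 26, 25 and 21 in control libraries, or 0.659, 0.700 and 0.596 CPM in rescue, 0.942, 0.706 and 2.61 CPM in knockdown-labelled and 3.03, 2.55 and 2.15 CPM in control. Rescue lay below control in every library, knockdown-labelled libraries 1 and 2 stood near the rescue level, and library 3 stood within the control range. CDH11 passed the filter on low counts through all 3 control libraries, 1 knockdown-labelled library and 0 rescue libraries. A difference was thus partly built into being tested, and the p-values and intervals below are given as a description from which nothing is read. The log2 fold change for rescue against control was -1.96 (SE 0.517, 95% confidence interval -3.10 to -0.82), which did not pass (edgeR adjusted p = 0.184) in a comparison where 25 genes did; the summed counts, 24 against 72, gave a ratio of 0.256 (exact interval 0.154 to 0.411, counting error only). It passed in 4 of 17 alternatives, among them the fit of these 2 groups alone (adjusted p = 0.0121) and DESeq2 (0.0348), and the highest adjusted p was 0.604, without control replicate 1. For knockdown-labelled against control the change was -0.86 (edgeR adjusted p = 0.372), and -1.65 without knockdown-labelled replicate 3 (edgeR adjusted p = 0.0238). Without that replicate 5691 genes passed in this comparison, beside 1 in the main fit. With libraries 1 and 2 left out the change was -0.0042. For rescue against knockdown-labelled it was -1.10 (edgeR adjusted p = 0.206), and -1.96 with libraries 1 and 2 of the knockdown-labelled group left out.

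**Figure D4:**
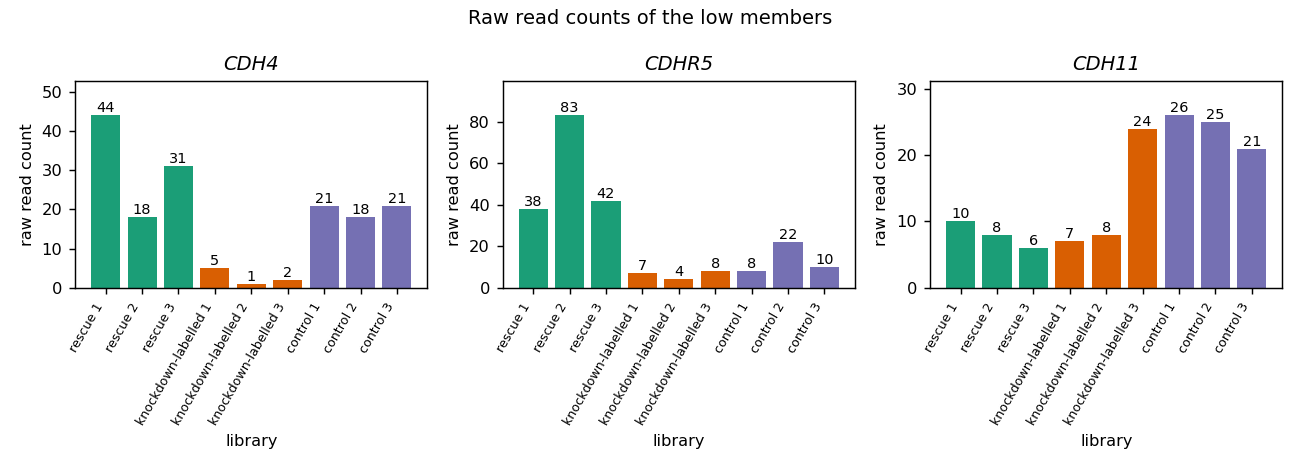
Raw read count (y axis, from 0) of CDH4, CDHR5 and CDH11 in each library (x axis), coloured by group, with the count above each bar. CDH4 has 5, 1 and 2 counts in the knockdown-labelled libraries, CDHR5 has 38 to 83 in the rescue libraries alone, and CDH11 has 24 counts in knockdown-labelled library 3 beside 7 and 8 in libraries 1 and 2.

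CDH6, which encodes K-cadherin, a cadherin of fetal kidney and some carcinomas, stood highest in rescue, then knockdown-labelled, then control libraries. The gene spans bases 31193750 to 31329146 of chromosome 5 (GRCh38), plus strand. It had 472, 242 and 166 counts in rescue, 108, 182 and 111 in knockdown-labelled and 65, 53 and 51 in control libraries. In CPM these were 31.1, 21.2 and 16.5 in rescue, 14.5, 16.1 and 12.1 in knockdown-labelled and 7.57, 5.41 and 5.23 in control. None of the 3 groups overlapped another, although the lowest rescue library and the highest knockdown-labelled library were close, and knockdown-labelled library 3 stood with libraries 1 and 2. The fitted log2 fold change of rescue was 1.93 against control and 0.69 against knockdown-labelled, and that of knockdown-labelled against control was 1.23. Leaving out 1 library at a time, they ran from 1.63 to 2.12, from 0.40 to 0.89 and from 1.13 to 1.42, with the lowest of the first 2 without rescue replicate 1. Of the fibroblast markers COL1A1, COL1A2, COL3A1 and LUM, all 4 had a higher mean in rescue than in control, and their summed level ranged from 34.7 to 113 CPM in rescue, 35.2 to 37.8 CPM in knockdown-labelled and 16.7 to 66.9 CPM in control libraries. In knockdown-labelled against control libraries LUM and COL3A1 had the higher mean and COL1A1 and COL1A2 the lower. The collagen gene COL1A1 averaged 42.5 ± 30.2 CPM in rescue, 24.4 ± 2.70 in knockdown-labelled and 27.1 ± 19.6 in control libraries, and LUM, which encodes the proteoglycan lumican, averaged 7.11 ± 1.96 CPM in rescue, 4.97 ± 2.51 in knockdown-labelled and 1.41 ± 0.751 in control libraries (SD, n = 3 each). The part of these genes in the CDH6 difference was not tested.

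The genes whose log2 CPM was most like that of these members over the 9 libraries, among 12456 protein-coding genes, are given as a description. For CDH4 they were HS6ST1, which encodes a heparan sulfate sulfotransferase (Pearson r = 0.980), RAB35 (0.976) and SLC25A29 (0.972). HS6ST1 averaged 71.2 ± 1.75 CPM in rescue, 55.9 ± 4.77 in knockdown-labelled and 71.0 ± 1.5 in control libraries (SD, n = 3 each). For CDH6 they were NPTXR (0.937), FERMT2, which encodes the integrin activator kindlin-2 (0.929), and DCN, which encodes the proteoglycan decorin (0.928). The DCN mRNA averaged 13.0 ± 0.820, 9.26 ± 3.81 and 2.80 ± 0.616 CPM in the same groups. For CDHR5 they were the protease gene PCSK7 (0.957), CNIH3 (0.931) and GBF1 (0.928). The 9 libraries fall into 3 groups, so such likeness rests mainly on the differences between groups, and the best of many genes is high by choice.

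CTNNA1, the alpha-catenin gene, was the member with the most counts in every library. It had 6294, 4603 and 3719 counts in rescue, 2632, 4020 and 4173 in knockdown-labelled and 3080, 3450 and 4017 in control libraries, or 415, 403 and 370 CPM, 354, 355 and 454 CPM, and 359, 352 and 412 CPM. The groups overlapped. It did not pass for rescue against knockdown-labelled (log2 fold change 0.03, 95% confidence interval -0.28 to 0.34, edgeR adjusted p = 0.916), rescue against control (0.08, -0.23 to 0.39, adjusted p = 0.908) or knockdown-labelled against control (0.05, -0.26 to 0.36, adjusted p = 0.875). Its count was 118% to 127% of that of CDH1 in rescue, 124% to 130% in knockdown-labelled and 125% to 132% in control libraries, and the groups overlapped in each comparison (exact permutation p = 0.2 to 0.4).

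CTNNB1, the beta-catenin gene, split the knockdown-labelled libraries. It had 3831, 2967 and 2095 counts in rescue, 1144, 1738 and 2520 in knockdown-labelled and 2100, 2344 and 2318 in control libraries. In CPM these were 252, 259 and 208 in rescue, 154, 153 and 274 in knockdown-labelled and 245, 239 and 238 in control. Knockdown-labelled libraries 1 and 2 were the lowest of the 9 and library 3 the highest, while rescue libraries lay on both sides of the control level. Over all libraries it did not pass for rescue against knockdown-labelled (log2 fold change 0.31, SE 0.209, edgeR adjusted p = 0.367), rescue against control (-0.0026, adjusted p = 0.999) or knockdown-labelled against control (-0.31, SE 0.210, adjusted p = 0.456). Without knockdown-labelled replicate 3, rescue against knockdown-labelled gave 0.64 (edgeR adjusted p = 4.2e-05) and knockdown-labelled against control gave -0.65 (edgeR adjusted p = 5.7e-05). In that setting 6745 and 5691 genes passed in these comparisons, beside 1651 and 1 in the main fit. With libraries 1 and 2 left out instead, the 2 values were -0.17 and 0.16. The split was 0.83 on the log2 scale between library 3 and the mean of libraries 1 and 2, and 71.4% of tested genes differed by that much or less. The mitochondrial shares given above, 15.1% and 15.8% against 10.2%, divide the same libraries, and their part in the result was not tested. Within libraries, the CTNNB1 count was 77.3%, 76.2% and 68.6% of the CDH1 count in rescue, 56.7%, 53.7% and 74.8% in knockdown-labelled and 88.3%, 85.0% and 76.0% in control. By this ratio every knockdown-labelled library was below every control library (mean log2 difference -0.44, exact permutation p = 0.1, adjusted over the 15 ratios 0.3). Library 3 was below by a narrow margin, 74.8% against 76.0% in control library 3, and it also held the highest CDH1 level of the 9 libraries (367 CPM). Against CTNNA1 the groups overlapped: the CTNNB1 count was 60.9%, 64.5% and 56.3% of the CTNNA1 count in rescue, 43.5%, 43.2% and 60.4% in knockdown-labelled and 68.2%, 67.9% and 57.7% in control libraries (knockdown-labelled against control -0.41, exact permutation p = 0.2, adjusted 0.333).

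CTNND1, the p120-catenin gene, had few counts for a gene of its kind, with 187, 165 and 135 in rescue, 95, 149 and 164 in knockdown-labelled and 98, 136 and 150 in control libraries. In CPM it was at 13.4 ± 1.05 in rescue, 14.6 ± 2.82 in knockdown-labelled and 13.6 ± 2.01 in control libraries (SD, n = 3 each). The groups overlapped, and no comparison passed. The log2 fold change was -0.13 for rescue against knockdown-labelled (edgeR adjusted p = 0.703), -0.02 for rescue against control (0.986) and 0.11 for knockdown-labelled against control (0.806). RefSeq (GRCh38.p14) places a read-through transcript, TMX2-CTNND1, on chromosome 11 at 57712523 to 57819180, over 99.4% of the span of CTNND1 at 57761802 to 57819540. In the exons of GENCODE release 29 the read-through gene shares 321 bases, or 3.65%, of CTNND1, and its symbol matched no row of the count files. Another protein-coding gene on the same strand shares 289 bases, or 3.285%, of the CTNND1 exons, and its row held 0 to 13 counts. HTSeq by default sets aside reads that fall in exons of 2 genes, and no source used here names the annotation the authors counted with. The level of CTNND1 may be understated for this reason, which was not tested, and its place in the order of levels above is uncertain.

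**Figure D5:**
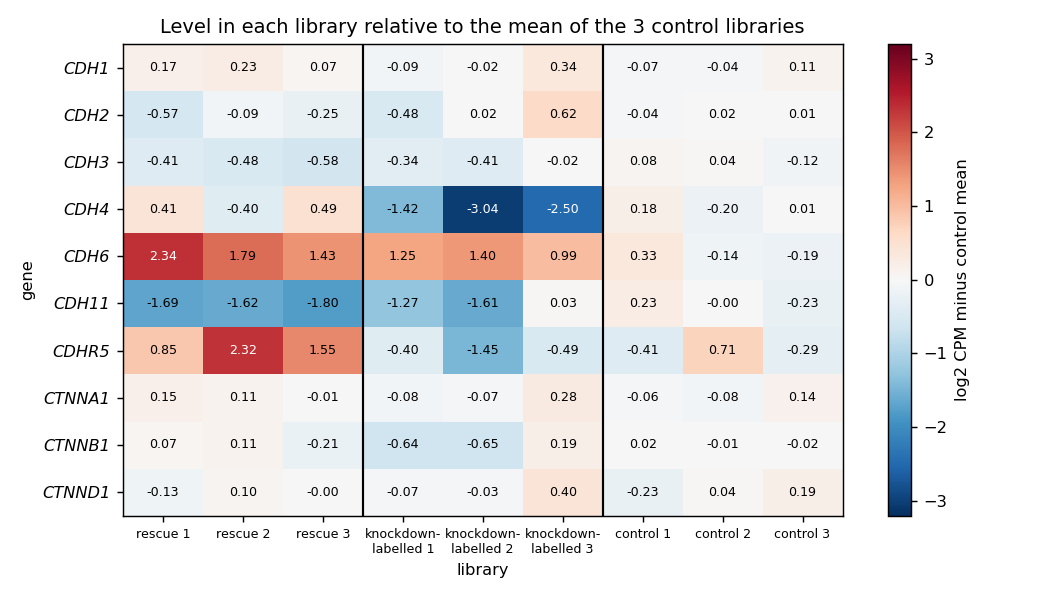
Level of each gene (rows) in each library (columns) as log2 CPM minus the mean of the 3 control libraries; colour and printed value show the same quantity. CDH4 is at -1.42, -3.04 and -2.50 in knockdown-labelled libraries 1, 2 and 3, CTNNB1 at -0.64, -0.65 and 0.19 and CDH11 at -1.27, -1.61 and 0.03, while CDH6 is at 0.99 or more in all 6 rescue and knockdown-labelled libraries.

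Other genes of the junction were read from lists drawn up for this account. Of all tested genes, 9.83% passed in rescue against knockdown-labelled, 0.149% in rescue against control and 0.00595% in knockdown-labelled against control. Among 33 other cadherins, 17 were tested. In rescue against knockdown-labelled libraries 2 rose and 0 fell, beside 4.44% of all genes higher and 5.39% lower, and in the other 2 comparisons 0 passed. Both were flamingo cadherins, large cadherins with a receptor-like membrane part that are known from planar cell polarity. The other tested flamingo cadherin, CELSR1, did not pass and averaged 10.6 ± 2.37 CPM in rescue, 10.8 ± 2.61 in knockdown-labelled and 15.2 ± 2.96 in control libraries (SD, n = 3 each). CELSR3 stood at 35.7, 40.8 and 39.6 CPM in rescue and 25.2, 26.4 and 17.6 CPM in knockdown-labelled libraries (log2 fold change 0.75, SE 0.161, edgeR adjusted p = 0.0209), and CELSR2 at 54.5, 52.9 and 48.0 CPM in rescue and 35.3, 26.3 and 40.4 CPM in knockdown-labelled libraries (0.61, SE 0.155, adjusted p = 0.0348). Neither overlapped between those groups. CELSR3 passed in 11 of 17 alternatives and CELSR2 in 5, and both lost the call without knockdown-labelled replicate 2 (adjusted p = 0.0523 for CELSR3 and 0.111 for CELSR2) and without any single rescue library; CELSR2 lost it without each other library but knockdown-labelled library 3 as well. CDH24, named here because it was the most abundant of the other classical cadherins once values were seen, averaged 85.8 ± 4.46 CPM in rescue, 104 ± 11.0 in knockdown-labelled and 103 ± 11.5 in control libraries (SD, n = 3 each).

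Of 16 other catenins and junction partners, 14 were tested. In rescue against knockdown-labelled libraries 1 rose and 1 fell, beside 4.44% of all tested genes higher and 5.39% lower. In the other comparisons 0 passed. ARVCF, a relative of p120-catenin that binds the same stretch of cadherin tails, rose: it stood at 67.7, 64.5 and 72.6 CPM in rescue and 50.5, 44.3 and 50.2 CPM in knockdown-labelled libraries, against 73.7, 84.0 and 67.4 CPM in control (log2 fold change of rescue against knockdown-labelled 0.50, SE 0.120, edgeR adjusted p = 0.0290). For knockdown-labelled against control it had -0.64 (adjusted p = 0.0712). NECTIN3, an immunoglobulin-like adhesion receptor of the adherens junction, fell: it stood at 11.6, 12.3 and 10.5 CPM in rescue and 16.7, 18.4 and 22.2 CPM in knockdown-labelled libraries (-0.73, SE 0.167, adjusted p = 0.0246). ARVCF passed in 9 of 17 alternatives and NECTIN3 in 10, with highest adjusted p of 0.119 and 0.212, and both calls were lost without any single rescue library and without knockdown-labelled replicate 2, that of ARVCF also without knockdown-labelled replicate 1 (adjusted p = 0.0679) or control replicate 1 (0.0596). JUP, plakoglobin or gamma-catenin, the close relative of beta-catenin shared with desmosomes, averaged 557 ± 24.9 CPM in rescue, 564 ± 24.1 in knockdown-labelled and 594 ± 12.4 in control libraries (SD, n = 3 each), and is named here with its values already known. Among the 12 desmosomal genes 7 were tested and 0 passed in any comparison.

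Genes that destroy beta-catenin or work with it in the nucleus numbered 20, of which 19 were tested. In rescue against knockdown-labelled libraries 2 rose and 0 fell, beside 4.44% of all tested genes higher and 5.39% lower. Of the 19 log2 fold changes 17 were positive and the median was 0.25, beside 49.7% positive and a median of -0.0023 for all tested genes. In knockdown-labelled against control 2 of 19 were positive (median -0.15), and in rescue against control 13 of 19 (median 0.10). In the list of other catenins and junction partners, 10 of 14 were positive in rescue against knockdown-labelled (median 0.08). There 2 of 14 were positive in knockdown-labelled against control (median -0.11) and 7 of 14 in rescue against control (median -0.04). These comparisons share groups, the lists were drawn up with earlier results known, and such counts are not given for the remaining lists. Nothing is read from them. BCL9L, a co-activator that joins beta-catenin to the transcription machinery, stood at 358, 332 and 296 CPM in rescue, 179, 189 and 187 CPM in knockdown-labelled and 261, 272 and 266 CPM in control libraries. The 3 groups did not overlap, and rescue against knockdown-labelled passed (log2 fold change 0.83, SE 0.116, edgeR adjusted p = 0.00866), also in 16 of 17 alternatives, the exception being the fit of those 2 groups alone (adjusted p = 0.0546). FBXW11, a subunit of the ubiquitin ligase that marks beta-catenin for destruction, stood at 44.4, 55.6 and 44.1 CPM in rescue and 29.3, 33.5 and 35.8 CPM in knockdown-labelled libraries (0.55, SE 0.133, adjusted p = 0.0305), a call held in 6 of 17 alternatives and, of the libraries left out singly, lost without each but knockdown-labelled library 3. In the other comparisons 0 of 19 passed, with BCL9L at 0.31 for rescue against control (adjusted p = 0.373) and -0.52 for knockdown-labelled against control (adjusted p = 0.0781). Of 14 target genes of beta-catenin, 10 were tested and 0 passed in any comparison. AXIN2, a feedback inhibitor widely used as a readout of the pathway and named after its values were seen, averaged 4.17 ± 0.997 CPM in rescue, 2.24 ± 1.49 in knockdown-labelled and 3.42 ± 1.05 in control libraries (SD, n = 3 each).

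Of 16 repressors of CDH1 and factors of epithelial identity, 13 were tested and 0 passed in any comparison. The repressor TWIST1 and the epithelial factor ELF3 had the smallest p in rescue against knockdown-labelled libraries: TWIST1 averaged 3.67 ± 1.38 CPM in rescue and 7.51 ± 1.63 in knockdown-labelled libraries (log2 fold change -1.04, edgeR adjusted p = 0.0546), and ELF3 averaged 317 ± 104 CPM in rescue and 159 ± 41.9 in knockdown-labelled libraries (1.00, adjusted p = 0.0533; SD, n = 3 each). TWIST1 averaged 5.30 ± 0.450 CPM in control libraries. The Snail and ZEB repressors SNAI1, SNAI2, ZEB1 and ZEB2 went the other way from TWIST1, with a higher mean in rescue than in knockdown-labelled libraries. SNAI1 averaged 4.90 and 4.09 CPM in these groups and ZEB1 1.06 and 0.473 CPM. In rescue against control the smallest p was that of ELF3, at 173 ± 49.9 CPM in control libraries (0.87, edgeR adjusted p = 0.300). Next was the repressor SNAI1, which averaged 4.90 ± 1.52 CPM in rescue and 2.80 ± 0.260 in control libraries (0.80, edgeR adjusted p = 0.475). In knockdown-labelled against control they were TCF3 (-0.44, edgeR adjusted p = 0.103) and ESRP2 (-0.23, edgeR adjusted p = 0.327). Of 17 genes of cadherin shedding and turnover, 14 were tested. In rescue against knockdown-labelled libraries 1 fell and 0 rose, beside 5.39% of all tested genes lower and 4.44% higher, and 0 passed in the other comparisons. The fall was in ADAM17, a membrane protease that sheds surface proteins, which stood at 40.9, 46.2 and 38.6 CPM in rescue and 57.5, 53.8 and 63.9 CPM in knockdown-labelled libraries (-0.48, SE 0.118, adjusted p = 0.0316). It passed in 5 of 17 alternatives and, of the libraries left out singly, was lost without each but knockdown-labelled library 3; with library size alone it was -0.24 (adjusted p = 0.447). ADAM10, the main sheddase of E-cadherin, named after its values were seen, averaged 75.4 ± 5.17 CPM in rescue, 75.0 ± 4.09 in knockdown-labelled and 67.4 ± 3.96 in control libraries (SD, n = 3 each).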

How the data were processed

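The authors deposited 1 file a library of raw read counts, whole numbers that had not been normalized. The submitters' processing notes name FastQC, cutadapt, STAR, HTSeq and hg38; versions, strand setting and gene annotation were not given in the sources used here. There were 60325 gene rows a file, and 5 summary rows that stayed out of library sizes and tests; 43.7% to 48.7% of all rows' counts lay on no feature and 2.36% to 3.14% were ambiguous. Without strand, reads of a gene and its antisense partner cannot be told apart. An antisense row over 5.62% of the CDH1 exon length held 86 to 634 counts, and one over 2.75% of CDH2 held 30 to 120. An antisense gene over 11.1% of the CDH3 exon length matched no row, so its counts are not known. Rows on the opposite strand over CDH6 and CTNNA1, the protein-coding gene LRRTM2 among them, held at most 18.

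The main test was the quasi-likelihood F test of edgeR 4.0.16 (R 4.3.3) after TMM scaling and filterByExpr (minimum count 10). One model covered all 9 libraries and left 6 residual degrees of freedom, with Benjamini-Hochberg adjustment over 16796 genes and a threshold of 0.05. The script was checked on simulated counts. A list of prostate markers is not reported here. Standard errors are the log2 fold change over the square root of F. CPM are counts per 1000000 scaled by TMM, and log2 CPM used a prior count of 2. Levels per kilobase used the union of exons in GENCODE release 29. The exact 95% interval of the summed count ratio of CDH11 assumes independent reads and covers counting error only. Replicates differed by more than sampling noise (chi-square per degree of freedom at least 2.13). The 10 genes, the 8 related lists and the tests were chosen with earlier results of these data known. Beside the 10 genes and UGT2B28, the text names list genes that passed (up to 4 by smallest p). Where none passed, it names only some of those with the smallest p. It also names the 3 protein-coding genes most like each of CDH4, CDH6 and CDHR5. The alternatives scaled by library size alone or by size factors of DESeq2 1.42.0, used 2 other filters, its Wald test, a fit of the 2 groups alone, a block for replicate number, each library left out, and knockdown-labelled libraries 1 and 2 left out together.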

Additional observations from a re-analysis of the deposited data

How the results depend on the processing

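The number of genes passing depended on the setting in all 3 comparisons, while the directions for CDH3, CDH4, CDH6, CDH11 and CDHR5 held in every alternative that could be fitted. For knockdown-labelled against control, 1 gene passed; 1009 passed with the DESeq2 Wald test, 1045 with no low count filter, 153 with library size alone, 2115 with knockdown-labelled libraries 1 and 2 left out, 0 with only the 2 groups, 0 with the replicate block, and 0 to 5691 with each library left out (5691 without knockdown-labelled replicate 3). For rescue against control, 25 passed, and the same settings gave 326 (DESeq2), 401 (no filter), 977 (libraries 1 and 2 left out), 962 (2 groups), 4 (replicate block) and 1 to 1276 (each library left out). For rescue against knockdown-labelled, 1651 passed, and they gave 2702, 2636, 3619, 7, 442 and 134 to 6745. The replicate numbers did not pair the libraries: same-numbered deviations correlated from -0.35 to 0.078, and the best partner had the same number in 2 of 18 checks. DESeq2 size factors and the filter of 1 CPM in 3 libraries kept each count within 1.5 times.

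Several changes that had not passed turned direction, none of them past the threshold. With library size alone, knockdown-labelled against control became -0.10 for CDH1, -0.034 for CDH2, -0.14 for CTNNA1 and -0.086 for CTNND1, rescue against control 0.025 for CTNNB1 and 0.0049 for CTNND1, and rescue against knockdown-labelled 0.091 for CTNND1; CDHR2 in knockdown-labelled against control became -0.061. With knockdown-labelled libraries 1 and 2 left out, rescue against knockdown-labelled became -0.16 for CDH1, -0.18 for CTNNA1 and -0.17 for CTNNB1, and knockdown-labelled against control 0.16 for CTNNB1, -0.39 for CDHR2 and -0.20 for SOX9, a target of beta-catenin. CTNNB1 in rescue against control, at -0.0026, was 0.00089 with the CPM filter, 0.0022 with 2 groups and 0.0051 with the replicate block. With each library left out, knockdown-labelled against control ran from -0.059 to 0.17 for CDH1, -0.20 to 0.35 for CDH2, -0.078 to 0.13 for CTNNA1, -0.065 to 0.21 for CTNND1, -0.36 to 0.25 for UGT2B28, -0.12 to 0.49 for CDHR2 and -0.11 to 2.08 for USH1C. Rescue against control ran from -0.063 to 0.096 for CTNNB1 and -0.13 to 0.077 for CTNND1. Rescue against knockdown-labelled ran from -0.014 to 0.21 for CDH1, -0.035 to 0.15 for CTNNA1 and -0.21 to 0.038 for CTNND1. The cause of these shifts was not tested. CDHR5 in knockdown-labelled against control and CDH11 in rescue against knockdown-labelled had too few counts to be tested with 2 groups alone. The depth limits CDH4, CDHR5 and CDH11, where 1 to 10 counts a library carry a group's value.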
